A study of Homo sapiens with 30 samples.

Results

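The highest and the lowest dose of one herbal formula were compared in cultured astrocytoma cells. Sibjeondaebo-tang is a traditional decoction that holds the herbs of Palmul-tang together with Astragali Radix and Cinnamomi Cortex, and it was given here as a water extract. The comparison takes the 3 libraries treated with 500 µg/mL and the 3 libraries treated with 20 µg/mL, 6 of the 30 libraries in the series, chosen by the formula and dose in their titles. All 6 came from SW1783 cells, a human astrocytoma line grown in L-15 medium, and were taken after 24 h of treatment. The libraries at 100 µg/mL (n = 3), the vehicle (0.1% DMSO per the sample labels and 2% per the series' design text, n = 3) and the Palmul-tang extract at 500 and 20 µg/mL (n = 3 each) are given only beside them. The labels do not state separate cultures for the libraries of a group, and p-values measure the spread between these libraries, which may be technical. In RNA from whole cultures, fewer cells of a kind and less RNA per cell cannot be told apart. The titles put all 30 libraries in one batch, and the vehicle libraries carry sample codes of a set that no treated library has.

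SW1783 is a single cell line, and 6 of the 14 astrocyte markers were below 1 CPM in it while others were expressed. GFAP, the intermediate filament of astrocytes, stood at a mean of 0.0579 CPM (counts scaled to a common library size) at 500 µg/mL and 0.114 CPM at 20 µg/mL. FABP7 had no count in any of the 6 libraries, and S100B, AQP4, ALDH1L1 and SLC1A2 were below 1 CPM, while VIM and CD44 were abundant. Means at 500 and 20 µg/mL were 242 and 251 CPM for GJA1, 61.5 and 67.6 for SOX9. They were 46.3 and 54.1 CPM for GLUL and 22.3 and 26.1 for SLC1A3. The 14 astrocyte markers summed to between 8400 and 8570 CPM at 500 µg/mL and between 8070 and 8160 CPM at 20 µg/mL. Most of this sum came from VIM (means of 5250 and 4950 CPM) and CD44 (2860 and 2770 CPM). Of the 9 that were tested 3 were lower at 500 µg/mL (2 without replicate 3), among them SLC1A3, a glutamate transporter (log2 fold change -0.22, adjusted p = 0.0113, up to 0.0867 with 1 library left out). These 3 were 33.3% of the 9, against 2.79% of all tested genes called lower. Markers of leukocytes summed to 171 to 184 CPM against 166 to 180 CPM, with AIF1 and P2RY12 at 0 in all 6 libraries. Most of this sum came from CD68 alone (means of 161 and 158 CPM), and 6 of the 9 markers were below 1 CPM. None of the 4 leukocyte markers, 4 endothelial markers and 6 neuron markers that were tested was called. Of the 4 oligodendrocyte markers tested only MBP, a myelin protein gene, was called (7.62 against 5.14 CPM), and MOG, OLIG1 and SOX10 had no count.

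Total counts ran from 27.9 M to 32.5 M at 500 µg/mL and from 28.2 M to 30.3 M at 20 µg/mL. The mitochondrial chromosome took 6.86% ± 0.372 (SD, n = 3) of the counts at 500 µg/mL and 7.31% ± 0.251 at 20 µg/mL (two-sided exact permutation test, p = 0.3). Genes annotated as other than protein-coding, called noncoding here, took 1.55% ± 0.0185 and 1.59% ± 0.0128, mitochondrial genes aside. The libraries do not overlap, and 0.1 is the smallest p that 3 against 3 libraries allow. This class holds pseudogenes too, and GPX1, which the annotation lists as a polymorphic pseudogene. One library stood apart. Replicate 3 at 500 µg/mL differed by more than 0.25 log2 units from the mean of the other 2 in 710 of 10302 well expressed genes, while the other 5 libraries did so in 70 to 166. The mean chi-square per gene between its counts and those of replicates 1 and 2 was 9.03 and 8.19, against 2.79 between replicates 1 and 2. Counts of called genes in a list are therefore given with and without this library, and where 1 count is given it was the same without it, though not always from the same genes. The genes in which it was farthest from the other 2 were EIF3CL, which has a near-identical copy in EIF3C (1.33 CPM against 13.6 and 25.2 CPM), BCYRN1, BIVM-ERCC5, TICAM2 and MT-ATP8 below, and PEDS1-UBE2V1, C4orf48, INAFM1, PUSL1 and CEBPD above. None of these 10 was called between the doses.

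NF-kappa B is a family of transcription factors held in the cytoplasm by inhibitor proteins, and on release it switches on chemokine, cytokine and adhesion genes together with genes of its own inhibitors. Bone morphogenetic proteins (BMPs) act through SMAD proteins, whose best known targets are the ID genes, inhibitors of basic helix-loop-helix transcription factors, and the inhibitory SMAD6 and SMAD7. Astrocytes and astrocytoma cells are known to secrete chemokines and interleukins when NF-kappa B is active, and to respond to BMPs by differentiating.

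Of 17839 tested genes, 1113 (6.24%) differed between the doses at an adjusted p below 0.05 in the quasi-likelihood test of edgeR, adjusted after Benjamini and Hochberg. Of these, 615 (3.45%) were higher and 498 (2.79%) lower at 500 µg/mL. Without replicate 3 at 500 µg/mL, 1165 genes (6.53%) were called, 611 higher (3.43%) and 554 lower (3.11%). The 848 genes called in both fits kept their sign, and made up 76.2% of the calls with all libraries and 72.8% of those without replicate 3. A fit on the 6 compared libraries alone, with their own spread, called 636 genes. Most changes were small. The median absolute log2 fold change of the called genes was 0.26, and 66 changed at least 2-fold, 49 upward (0.275%) and 17 downward (0.0953%). The median log2 fold change of all tested genes was 0.0008. In 1790 genes (10%) all 3 libraries at 500 µg/mL lay above the 3 at 20 µg/mL, and in 1585 (8.89%) they all lay below.

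**Figure D1:**
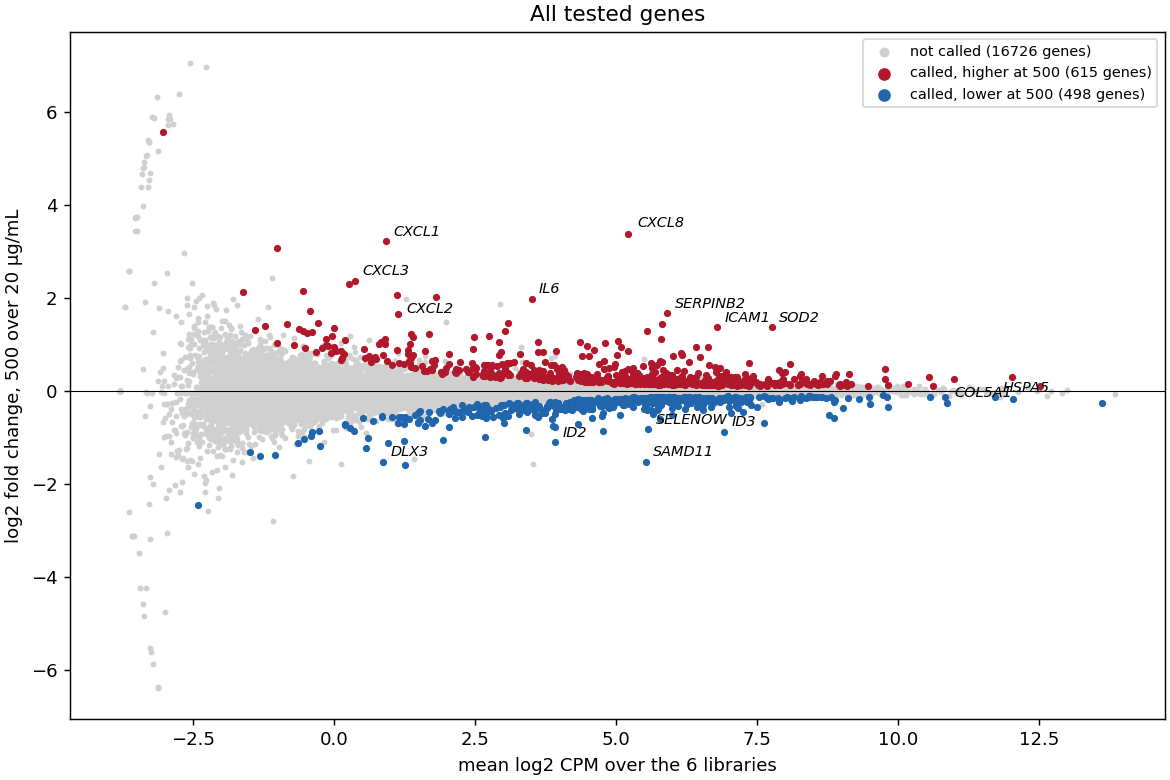
Log2 fold change of 500 over 20 µg/mL against the mean log2 CPM of the 6 libraries, 1 point per tested gene, with 615 genes called higher in red and 498 called lower in blue. CXCL8 and CXCL1 sit above 3 log2 units and SAMD11 and DLX3 at about -1.52, while called genes of high level such as HSPA5 sit close to the zero line.

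Neutrophil-attracting chemokines rose most. Of 11 CXC chemokine genes 9 were tested, 5 rose and 0 fell, with a median log2 fold change of 1.89 (1.60 without replicate 3 at 500 µg/mL). These rises made up 55.6% of the tested members, against 3.45% of all tested genes. CXCL8, the gene of interleukin 8 (ENSG00000169429, chromosome 4, 73740506 to 73743716 in GRCh38), stood at 133, 117.9 and 108.8 CPM in the 3 libraries at 500 µg/mL and at 10.5, 12.9 and 11.3 CPM at 20 µg/mL. The lowest library at 500 µg/mL was far above the highest at 20 µg/mL, and vehicle was at 10.9 ± 1.56 CPM (SD, n = 3). CXCL8 thus rose 10.4-fold (log2 3.38 ± 0.095 SE, adjusted p = 6.33e-15), and by 3.45 on the log2 scale without replicate 3. CXCL1, a ligand of the same receptor CXCR2, was at 6.18, 5.19 and 5.21 CPM against 0.462, 0.493 and 0.826, a 9.28-fold rise. CXCL3 rose 5.18-fold from 0.537 to 2.79 CPM, CXCL2 rose 4.19-fold from 1.02 to 4.30 CPM, and CXCL5 rose 3.15-fold from 1.20 to 3.78 CPM. CXCL1, CXCL2 and CXCL3 are close copies of one another, so reads may be split between them by the counting. CXCL6, on the same chromosome, was at 0.306 against 0.0811 CPM and was not called (adjusted p = 0.0652). CXCL14 went the other way, at 0.153 against 0.355 CPM with no overlap between the doses, and was not called (log2 fold change -1.17, adjusted p = 0.138). CXCL12 (-0.19) and CXCL16 (0.12) were not called either. Among 9 CC chemokine genes 4 were tested and 2 rose. CCL2, which attracts monocytes, was at 75, 72.2 and 72.7 CPM against 30.9, 29.8 and 28.7 CPM, and its vehicle mean of 40.8 CPM lay between the doses. CCL5 rose 2.33-fold, from 2.05 to 4.79 CPM.

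The bases before the start of 5 raised inflammatory genes are shown, chosen among genes that hold the motif searched here. The motif GGNNTTTCC, a core of known NF-kappa B sites, was searched on both strands of the 250 bases before the RefSeq start in GRCh38.p14. It was found in 1926 of 35116 promoters (5.48%), in 5.88% of those of tested genes, in 11.2% of 472 promoters of genes called higher and in 4.83% of 393 promoters of genes called lower at 500 µg/mL. Among the chemokine, cytokine and NF-kappa B genes that rose, 34 in all, 26 had a promoter in the table and 14 of these held the motif (53.8%). These 26 were chosen by their change, and from lists that hold known targets of NF-kappa B. The share in members of these lists that were not called was not counted. The 53.8% is therefore a description and does not bear on the dose change, and a match is not a measured binding site. CSF2 (log2 fold change 3.08), IL1B (1.47) and IL1A (1.05) were among those of the 26 that did not hold it. The 5 genes with the largest rise among the 14 follow, 5′ to 3′ on the gene's strand, with the motif in capitals. Stretches end before the exons of GENCODE release 29, and where an annotated exon holds the match 30 bases around it are shown.
CXCL8, chr4:73740356-73740505, plus strand: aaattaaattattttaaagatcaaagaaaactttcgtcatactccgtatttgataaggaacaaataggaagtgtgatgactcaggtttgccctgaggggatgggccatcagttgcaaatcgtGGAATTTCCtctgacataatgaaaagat
CXCL1, chr4:73869243-73869392, plus strand: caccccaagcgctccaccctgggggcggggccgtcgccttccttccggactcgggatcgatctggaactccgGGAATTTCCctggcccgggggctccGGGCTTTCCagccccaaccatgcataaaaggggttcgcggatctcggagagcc
CXCL3, chr4:74038748-74038777, minus strand: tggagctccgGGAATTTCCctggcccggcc
CXCL2, chr4:74099253-74099282, minus strand: tggagctccgGGAATTTCCctggcccggga
IL6, chr7:22726997-22727146, plus strand: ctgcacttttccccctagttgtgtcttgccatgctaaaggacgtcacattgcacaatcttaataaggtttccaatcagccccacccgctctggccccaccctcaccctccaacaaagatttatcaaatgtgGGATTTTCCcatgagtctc
In CXCL8 the motif begins 91 bases before the start, in CXCL1 and CXCL3 78 bases with a second match at 53, in CXCL2 77 bases with a second at 53, and in IL6 72 bases. The motif TGANTCA, the core of AP-1 sites, was found in 3 of the 26 promoters (11.5%). It was in 6.57% of all promoters, 4.29% of those of tested genes, 5.72% of those of genes called higher and 6.11% of those of genes called lower. CXCL8 holds it 137 bases before the start, within the stretch shown. The 2 motifs do not overlap there.

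Cytokine genes rose with the chemokines. Of 20 genes 18 were tested, 13 rose and 1 fell (11 and 0 without replicate 3, with a median log2 fold change of 0.57 and 0.61). The share that rose was 72.2%, against 3.45% of all tested genes. IL6, an inflammatory cytokine (ENSG00000136244), was at 22, 23.6 and 21.8 CPM at 500 µg/mL and at 4.98, 5.92 and 6.16 CPM at 20 µg/mL, a log2 fold change of 1.98 ± 0.085 (SE, adjusted p = 6.79e-19). The 2 groups lay far apart, and replicate 3 was close to the other libraries at 500 µg/mL. LIF, a cytokine of the same receptor family, was at 94.5, 87 and 98.6 CPM against 36.4, 33 and 33.2 CPM, and its vehicle mean of 56.9 ± 4.19 CPM lay between the doses. IL1B was at 12.9, 14 and 14.9 CPM against 4.45, 5.04 and 5.65 CPM, and IL1A rose 2.07-fold. The growth factors of granulocytes and macrophages changed most in ratio from very low levels: CSF2 rose from 0.137 to 1.19 CPM and CSF3 from 0.500 to 2.49 CPM. IL32 rose 2.08-fold, and IL33 and TSLP, released by barrier tissues as alarm signals, had log2 fold changes of 0.56 and 0.58. IL7, a growth factor of lymphocytes, was the gene that fell (log2 fold change -0.35, adjusted p = 0.0412), and its call ended without replicate 3 at 500 µg/mL (0.166).

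Receptor genes had a smaller median change than the ligands. Of 24 tested receptor genes 8 rose and 0 fell, with a median log2 fold change of 0.13, and 6 rose without replicate 3. With all libraries 33.3% of this list rose, against 3.45% of all tested genes. TNFRSF9, a receptor of the tumour necrosis factor family, rose from 1.65 ± 0.434 to 3.86 ± 0.405 CPM (SD, n = 3). IL1RL1, the receptor of interleukin 33, rose from 41.8 to 59.1 CPM, and IL15RA and FAS had log2 fold changes of 0.39 and 0.26. Exons of FAS overlap ACTA2 on the opposite strand, and the strand used for counting is not stated, so reads of this pair may be mixed. The same holds for IL6, LIF, ICAM1, SOD2, TNFAIP3, PTX3, IER3 and ID2, whose exons each overlap an annotated gene on the opposite strand.

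NF-kappa B subunits and their inhibitors rose together. Of 26 tested genes 14 rose (53.8%, against 3.45% of all tested genes), 0 fell and 12 were not called (median 0.28, with 13 rises and a median of 0.23 without replicate 3). In 16 the 3 libraries at 500 µg/mL all lay above those at 20 µg/mL, and the same was true of 10% of all tested genes. NFKBIA, the inhibitor I kappa B alpha, was at 82.4, 82.7 and 84.4 CPM against 49.7, 47.3 and 50.8 CPM. TNFAIP3, the A20 protein that ends NF-kappa B signalling, was at 48.4, 46.4 and 47.2 CPM against 24.8, 25.4 and 23.5 CPM. Both inhibitors were in vehicle at about the level of 20 µg/mL (46.5 ± 1.54 and 23.6 ± 0.714 CPM). NFKB2 and RELB, the subunits of the noncanonical pathway, had log2 fold changes of 0.85 ± 0.052 and 0.88 ± 0.059, NFKB1 of 0.29 and REL of 0.39. BIRC3, an inhibitor of apoptosis, rose 2.08-fold (adjusted p = 5.41e-14).

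Inflammatory proteins of the cell surface and medium rose in 12 of 18 tested genes and fell in 0 (median 0.46, and 11 rises with a median of 0.41 without replicate 3). The 12 rises were 66.7%, against 3.45% of all tested genes. ICAM1, an adhesion receptor for leukocytes, was at 181.7, 173.8 and 181.6 CPM at 500 µg/mL and at 75.7, 66.7 and 65 CPM at 20 µg/mL, a 2.59-fold rise. PTX3 and C3, secreted proteins of innate immunity, rose 2.17-fold and 1.72-fold, and the signalling kinase IRAK2 rose 1.68-fold. SOD2, the mitochondrial superoxide dismutase, had the smallest p of all named genes, with 381.1, 338.7 and 329.3 CPM against 137.5, 137.2 and 129.6 CPM (log2 fold change 1.38 ± 0.041, adjusted p = 3.58e-23). None of the other 13 tested enzymes of superoxide and peroxide was called higher. GPX1, a selenium-dependent peroxidase, fell from 179.3 to 131.3 CPM, and GPX8 fell by 0.15 log2 units (adjusted p = 0.0153, and 0.0734 without replicate 3). PTGS2, the inducible cyclooxygenase, rose from 61.9 to 119.7 CPM, with 93.0 CPM in vehicle, and PLA2G4A rose by 0.23 log2 units (adjusted p = 0.0116, up to 0.109 with 1 library left out). Of 31 tested interferon genes only IFIT2 was called (log2 fold change 0.61, adjusted p = 0.00914, up to 0.0528 with 1 library left out). This is 3.23%, against 3.45% of all tested genes called higher. In 11 the libraries at 500 µg/mL all lay above those at 20 µg/mL, and the same was true of 10% of all tested genes. A fit on only the compared groups called 7 of the 31 and DESeq2 called 3.

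**Figure D2:**
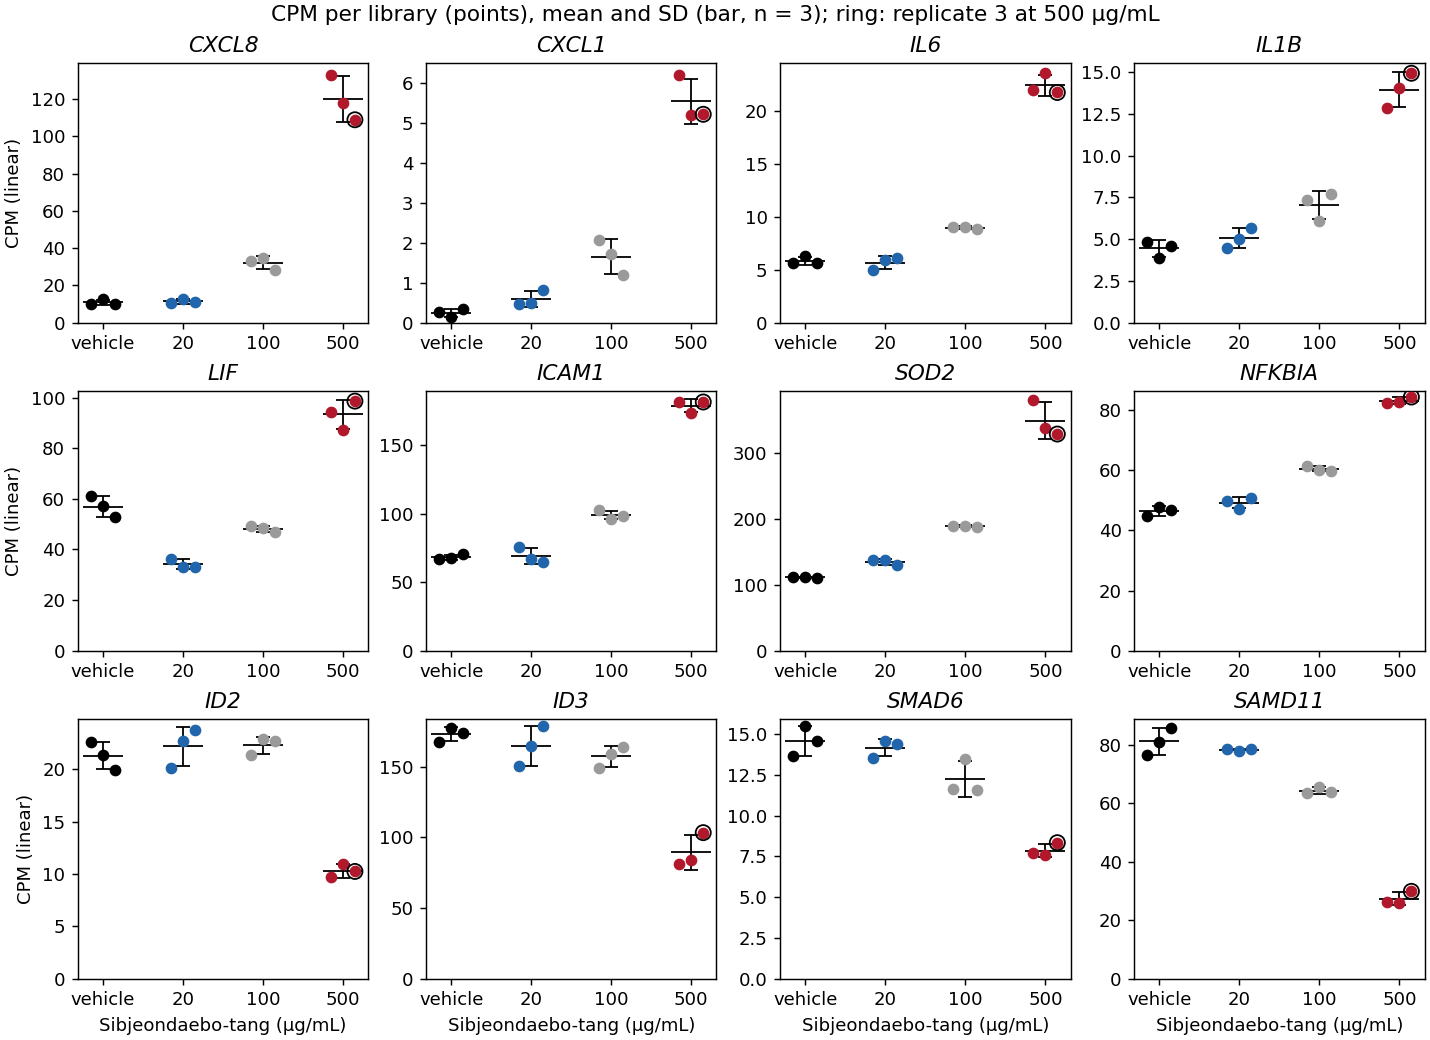
CPM of 12 genes (vertical axes, linear, from 0) in each library of vehicle and of 20, 100 and 500 µg/mL (horizontal axis), with the mean and SD of 3 libraries and a ring around replicate 3 at 500 µg/mL. CXCL8, CXCL1, IL6, IL1B, LIF, ICAM1, SOD2 and NFKBIA sit higher at 500 than at 20 µg/mL with 100 µg/mL between, and ID2, ID3, SMAD6 and SAMD11 sit lower in all 3 libraries.

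The ID genes fell together. Of 25 genes of the ID and BMP list 23 were tested, 10 fell and 1 rose (median -0.14, and 11 falls with a median of -0.13 without replicate 3). The 10 falls were 43.5% of those tested, against 2.79% of all tested genes. The 1 rise was 4.35%, against 3.45%. ID2 was at 9.70, 11 and 10.2 CPM at 500 µg/mL and at 20.1, 22.7 and 23.8 CPM at 20 µg/mL, a fall by 1.11 ± 0.078 log2 units (SE, adjusted p = 5.75e-13). ID3 was at 80.9, 83.9 and 103.4 CPM against 150.3, 164.6 and 178.7 CPM. ID1 was at 145.2, 144.7 and 179.4 CPM against 240.1, 260.1 and 255.7 CPM. In ID1 and ID3 replicate 3 was the library at 500 µg/mL closest to the lower dose, and the fall of ID3 grew from 0.88 to 1.00 log2 units without it. ID4 fell from 3.35 to 1.58 CPM. SMAD6 and SMAD7, inhibitory SMADs, had log2 fold changes of -0.85 and -0.39, SMAD9 of -0.62 (adjusted p = 0.00913, up to 0.0801 with 1 library left out) and the helix-loop-helix gene ATOH8 of -0.78. BMP4, a ligand, had -0.39. GREM1, a secreted BMP antagonist, rose (32.9, 29.9 and 26.3 CPM against 19, 18 and 16.3 CPM).

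Homeobox genes of the DLX, MSX and HOX families had 21.1% of tested members called lower, against 2.79% of all tested genes. DLX3, a homeobox gene, was at 0.857, 1.254 and 1.00 CPM against 2.80, 3.10 and 2.99 CPM, a fall by 1.52 log2 units (adjusted p = 1.63e-08). Of 19 tested genes of the DLX, MSX and HOX families 4 fell and 0 rose (3 falls without replicate 3): DLX2 had a log2 fold change of -0.38, and the calls of DLX1 and HOXA9 ended when single libraries were left out (adjusted p up to 0.227 and 0.214). HOXA13, outside that list, fell from 2.95 to 1.81 CPM. SAMD11, a gene on chromosome 1 (923928 to 944581) whose exons overlap NOC2L on the opposite strand, was at 26.2, 25.9 and 29.9 CPM against 78.5, 78.1 and 78.5 CPM. Its fall by 1.52 log2 units (adjusted p = 5.28e-22) had the smallest p of all named falls. LINC02593, a noncoding RNA on the same chromosome (916865 to 921016, minus strand), fell 2-fold, from 8.99 to 4.49 CPM. UCA1, another noncoding RNA, fell from 5.48 to 2.66 CPM. SELENOW, a small selenoprotein, was at 34.9, 35.1 and 37.1 CPM against 63.6, 62.7 and 63.3 CPM. SYTL5 fell 1.82-fold, the retinal reductase DHRS3 fell 1.63-fold, IFITM10 1.72-fold and KCTD16 1.70-fold. RASA4B fell 1.69-fold, but it has a near-identical copy, RASA4 (log2 fold change -0.52), and reads of this pair are uncertain. GPER1, a membrane receptor for estrogen, fell from 2.78 to 1.28 CPM.

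**Figure D3:**
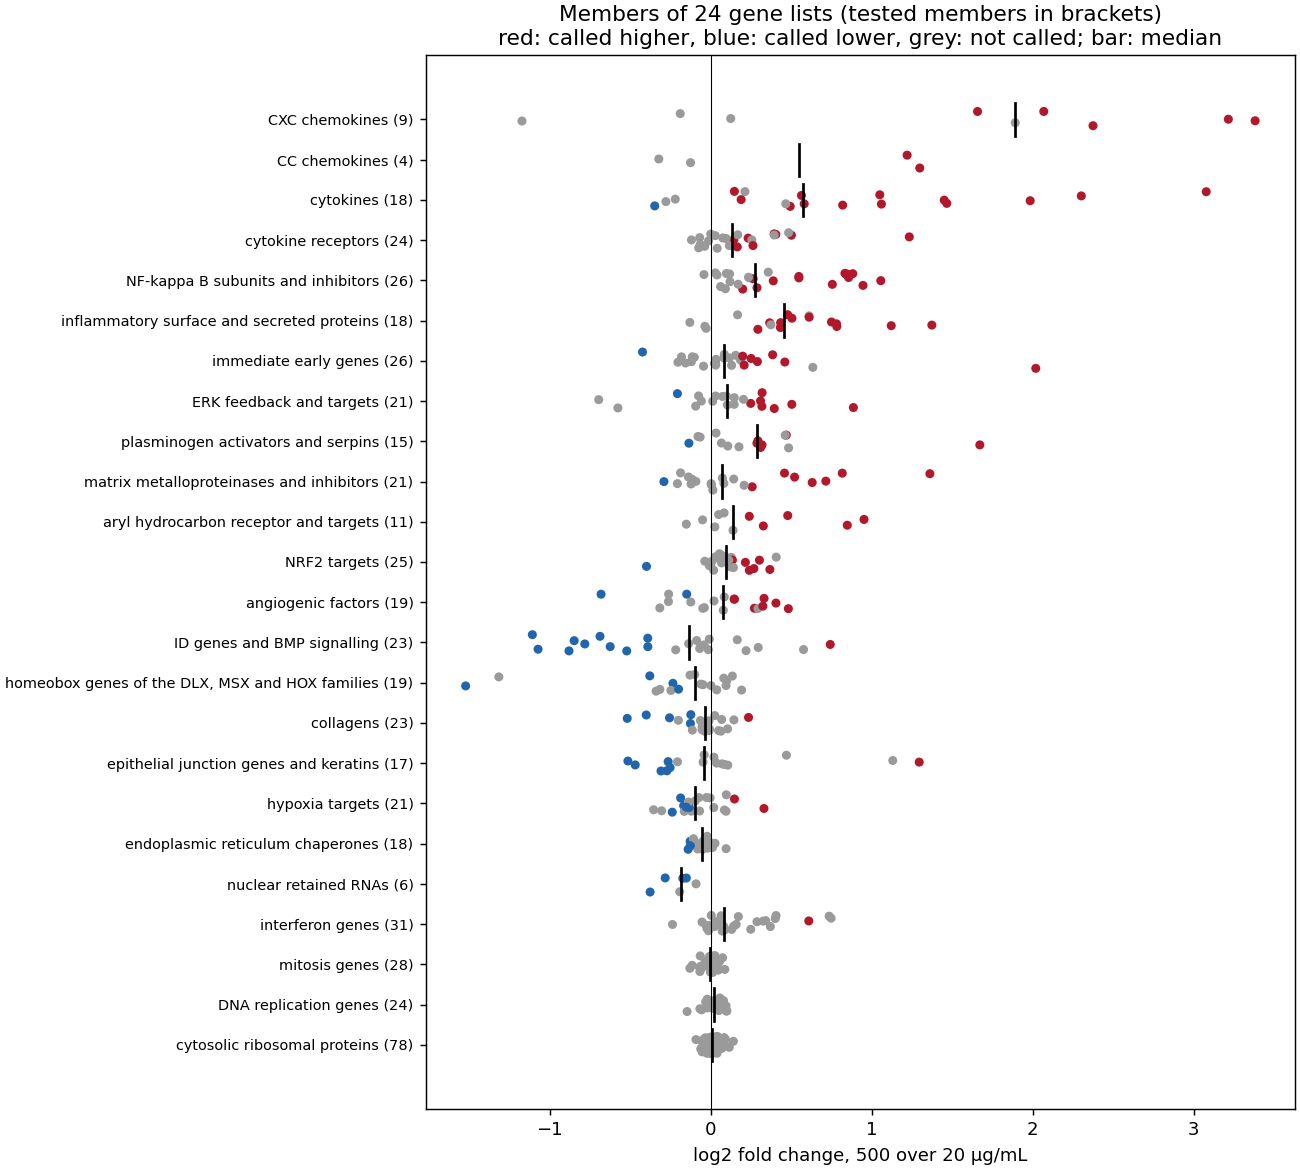
Log2 fold change (horizontal axis) of each tested member of 24 gene lists (rows, number tested in brackets), red where called higher, blue where called lower and grey where not called, with a bar at the median. The chemokine and cytokine rows reach to the right, the ID and BMP row to the left, and the rows of mitosis, DNA replication and ribosomal protein genes hold no called gene.

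Early response and growth factor signalling genes rose in part. Of 26 tested immediate early genes 7 rose and 1 fell (5 and 1 without replicate 3), and the median of 0.08 was close to that of all genes. IER3, an early gene that protects from apoptosis, was at 6.43, 6.63 and 7.64 CPM against 1.48, 1.97 and 1.65 CPM. FOSL1, an AP-1 subunit, rose from 202.2 to 278.2 CPM and thereby to the vehicle level of 276.8 CPM, and KLF6 and JUN had log2 fold changes of 0.29 and 0.25. EGR3 fell by 0.42 log2 units. Feedback genes of the ERK kinase rose in 7 of 21 and fell in 1 (7 and 2 without replicate 3), with PHLDA1 at 0.39, DUSP6 at 0.50, DUSP4 at 0.32 and HBEGF, a ligand of the epidermal growth factor receptor, at 0.31. Of 19 tested angiogenic factors 7 rose and 2 fell (8 and 3 without replicate 3): FGF7 had a log2 fold change of 0.48, HGF 0.40, VEGFC 0.27 and FGF2 0.33, while PGF fell by 0.68. Rises were 26.9% of the early genes, 33.3% of the ERK list and 36.8% of the angiogenic factors. Falls were 3.85%, 4.76% and 10.5% in the same order. Among all tested genes 3.45% were called higher and 2.79% lower.

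Enzymes that cut the matrix rose and several structural genes fell. Of 15 tested plasminogen activators and serpins 6 rose and 1 fell, with or without replicate 3. SERPINB2, an inhibitor of plasminogen activators, was at 114.5, 103.1 and 104.2 CPM against 31.3, 37.3 and 32.7 CPM. PLAU and its receptor PLAUR had log2 fold changes of 0.32 and 0.29. Of 21 tested metalloproteinase genes and their inhibitors 7 rose and 1 fell (7 and 2 without replicate 3): ADAMTS1 was at 95.1, 92.4 and 94.7 CPM against 53.5, 53.8 and 53 CPM, ADAMTS9 had a log2 fold change of 0.63, MMP1 of 0.46 and MMP14 of 0.26. Of 23 tested collagens 5 fell and 1 rose (7 and 1 without replicate 3). COL5A1 fell from 2058 to 1723 CPM, COL13A1 by 0.52 and COL11A1 by 0.40 log2 units, and COL4A6 rose by 0.23. Among 15 contractile genes 3 fell and 1 rose: ACTA2, smooth muscle actin, fell from 107.3 to 80.5 CPM, CALD1 and TPM1 fell by 0.20 and 0.18, and SMTN rose by 0.29. Rises were 40% of plasminogen activators and serpins, 33.3% of the metalloproteinase list, 4.35% of collagens and 6.67% of contractile genes. Falls were 6.67%, 4.76%, 21.7% and 20% in the same order. Among all tested genes 3.45% were called higher and 2.79% lower.

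Junction and keratin genes went in both directions. Of 17 tested genes 6 fell and 1 rose, with or without replicate 3. CLDN1, a tight junction protein, was at 13.5, 12.4 and 12.1 CPM against 5.51, 4.90 and 5.06 CPM, a 2.45-fold rise. KRT18 fell from 154.5 to 111.6 CPM, KRT7 had a log2 fold change of -0.51, KRT81 of -0.27 and DSP, a desmosome protein, of -0.31. Exons of KRT18 overlap those of KRT8 on the opposite strand. Of 20 tested TGF-beta targets 3 rose and 4 fell (3 and 5 without replicate 3). INHBA, the activin A subunit, rose 1.94-fold from 71.6 to 138.5 CPM, THBS1 by 0.26 log2 units, and SKIL fell by 0.29. Of 19 tested YAP and TEAD targets 5 rose and 1 fell (5 and 2 without replicate 3): F3, tissue factor, had 0.59, CCN1 0.32 and WWC1 0.29, while ANKRD1 fell by 0.70. The Wnt list had 2 rises, WNT5A at 0.20 and WNT7B at 0.19, and 2 falls, SFRP2 at -0.31 and TCF7 at -0.17 (1 rise and 2 falls without replicate 3). The calls of WNT7B and TCF7 ended when single libraries were left out (adjusted p up to 0.0958 and 0.204). NOTCH2, at 0.16, was the only call among 13 Notch genes. Rises were 5.88% of junction and keratin genes, 15% of TGF-beta targets, 26.3% of YAP targets, 13.3% of Wnt genes and 7.69% of Notch genes. Falls were 35.3%, 20%, 5.26%, 13.3% and 0% in the same order. Among all tested genes 3.45% were called higher and 2.79% lower.

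Genes that respond to xenobiotics and oxidants had small changes. Of 25 tested NRF2 targets 6 rose and 1 fell (6 and 0 without replicate 3), with a median of 0.09. NQO1, a quinone reductase, was at 174, 171.6 and 175.1 CPM against 146.9, 147.3 and 146.9 CPM, a 1.18-fold rise with no overlap. FTH1, ferritin heavy chain, rose 1.23-fold, and TXNRD1 and the cystine transporter SLC7A11 had log2 fold changes of 0.21 and 0.27. HMOX1, heme oxygenase, was at 72.1 against 66 CPM and was not called (log2 fold change 0.13 ± 0.047, adjusted p = 0.114). Of 11 tested genes of the aryl hydrocarbon receptor list 5 rose and 0 fell. CYP1A1, its classical target, was at 1.22, 1.08 and 1.64 CPM against 0.990, 0.458 and 0.723 CPM, and its call (adjusted p = 0.0288) ended without replicate 3 at 500 µg/mL (0.16). ALDH1A3 rose 1.39-fold and TIPARP had 0.33. Among 7 tested metallothionein and zinc genes MT2A rose from 420.5 to 539 CPM, MT1E fell from 24.8 to 18.4 CPM, and SLC30A1 fell by 0.18 (adjusted p = 0.0113, and 0.095 without replicate 3), which left 1 rise and 1 fall. With all libraries, rises were 24% of NRF2 targets, 45.5% of the aryl hydrocarbon receptor list and 14.3% of the metallothionein list. Falls were 4%, 0% and 28.6% in the same order. Among all tested genes 3.45% were called higher and 2.79% lower.

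Metabolic genes showed single changes. TXNIP, which binds thioredoxin and limits glucose uptake, was at 16.1, 16.7 and 16 CPM against 8.44, 10.1 and 8.91 CPM, and SLC2A6 and SLC2A12, glucose carriers, had log2 fold changes of 0.36 and -0.64. IGFBP1, which binds insulin-like growth factors, rose 2.04-fold, from 19.5 to 39.8 CPM, IGFBP5 by 0.23, and FOXO1, a transcription factor restrained by insulin, fell from 14.8 to 9.99 CPM with SESN3 at -0.38. Of 24 genes of cholesterol synthesis and uptake 2 fell and 0 rose, and without replicate 3 there were 2 falls. HMGCS1, an enzyme early in this synthesis, fell by 0.16, and its call ended without replicate 3 (adjusted p = 0.0856). Of 24 lipid genes 4 rose and 3 fell (4 and 5 without replicate 3, so that falls then outnumbered rises), among them the lipid droplet gene PLIN2 at 0.29, ANGPTL4 at 0.33, SCD at -0.22 and MYLIP at -0.39. Of 21 hypoxia targets 2 rose and 5 fell (2 and 6 without replicate 3), with P4HA1 at -0.19, BNIP3 at -0.24 and BNIP3L at -0.17, and PGK1 was the 1 called glycolysis gene of 18 (-0.13, adjusted p = 0.0124, up to 0.125 with 1 library left out). PHGDH and PSAT1, enzymes of serine synthesis, had -0.35 and -0.20, and SLC38A2 -0.12. The calls of PSAT1 and SLC38A2 ended when single libraries were left out (adjusted p up to 0.132 and 0.142). Rises were 0% of cholesterol genes, 16.7% of lipid genes, 9.52% of hypoxia targets and 0% of glycolysis genes. Falls were 8.33%, 12.5%, 23.8% and 5.56% in the same order. Among all tested genes 3.45% were called higher and 2.79% lower.

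Stress groups held some calls, and growth and housekeeping groups held none with all 6 libraries. Falls made up 16.7% of the tested chaperone genes of the endoplasmic reticulum, against 2.79% of all tested genes. Rises made up 15% of the p53 targets, against 3.45%. HSPA5, the chaperone BiP, fell by 0.14 ± 0.033 log2 units (3567 to 3236 CPM), and 2 of the other 17 tested chaperone genes of the endoplasmic reticulum fell, HSP90B1 by 0.13 and SEL1L by 0.13 (adjusted p = 0.062 and 0.148 without replicate 3). DDIT3, a marker of the unfolded protein response, was not called (log2 fold change -0.10 ± 0.067), nor was CDKN1A, the cell cycle inhibitor p21 (0.10 ± 0.058). Of 20 tested p53 targets 3 rose and 0 fell (2 and 1 without replicate 3), with TNFRSF10B at 0.32, PLK2 at 0.19 and AEN at 0.22 (adjusted p = 0.118 for AEN without replicate 3). Among 16 heat shock genes DNAJB1 fell by 0.19 and HSP90AB1 rose by 0.11 (adjusted p = 0.0129, up to 0.0888 with 1 library left out), and without replicate 3 there were 3 rises and 2 falls. No gene was called among 28 mitosis genes, 24 DNA replication genes, 13 mitochondrially encoded genes, 28 nuclear genes of the respiratory chain and 78 cytosolic ribosomal proteins. MKI67, the proliferation marker, was at 265.1 against 261 CPM. CDK1 (log2 fold change -0.13, adjusted p = 0.0916), RRM2 (0.10, adjusted p = 0.0721), MT-CO1 (-0.07), ATP5F1C (-0.10) and RPL24 (0.09) had the smallest p in these lists. Without replicate 3, RRM2 (adjusted p = 0.00571), the replication gene CCNE2 (0.0363) and the mitosis gene CDC20 (0.0321) were called.

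Further lists follow, and of all tested genes 3.45% were called higher and 2.79% lower. Falls made up 66.7% of the tested nuclear retained RNAs. Of 6 tested nuclear retained RNAs 4 fell (2 without replicate 3): NEAT1 was at 462.9, 445 and 471.6 CPM against 599.8, 569.4 and 621.9 CPM, with 297.6 ± 12.1 CPM in vehicle, and MEG3 fell from 798.6 to 656.3 CPM. SNHG14 and OIP5-AS1 fell by 0.17 and 0.15, and without replicate 3 their adjusted p was 0.0545 and 0.128. The share of counts in noncoding genes was lower too, but it includes NEAT1 and MEG3, so it is not a separate observation. SNHG3 rose by 0.24 among 17 host genes of small nucleolar RNAs (2 rises without replicate 3). Of 25 tested G protein coupled receptors 3 rose and 3 fell (2 and 3 without replicate 3), with BDKRB1, a bradykinin receptor, at 0.44 and F2R, a thrombin receptor, at -0.33. Of 11 glucocorticoid targets 2 rose and 2 fell: DUSP1 had 0.25, ERRFI1 -0.31 and GLUL, glutamine synthetase, -0.22, and FKBP5 was not called (0.15 ± 0.078). The protease gene CTSS rose from 3.98 to 7.38 CPM. The other calls among 23 lysosome and autophagy genes were TFE3 at 0.19, and SQSTM1 at 0.15 and GLA at 0.16, which lost the call when single libraries were left out (adjusted p up to 0.0642 and 0.126). The 4 rises and 0 falls of this list became 3 rises and 2 falls without replicate 3. ZEB1 rose by 0.19, and CDH11 fell by 0.10 and the clock gene NR1D2 by 0.16 with calls that also ended (adjusted p up to 0.172 and 0.139). Among 9 mesenchymal markers 3 fell (4 without replicate 3): PDGFRB had -0.24, DCN -0.33 and COL1A2 -0.13 (adjusted p up to 0.0751 with 1 library left out), and their sum was 11200 to 11800 CPM against 11300 to 12200 CPM. SOX9 had -0.13 (adjusted p up to 0.171 with 1 library left out), and SYT1, CSF1R and KDR were not called (adjusted p = 0.103, 0.0505 and 0.0699).

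The intermediate dose shows how the change was spread over the range. Of the 1043 called genes whose mean log2 CPM reached 1, 967 (92.7%) had a mean at 100 µg/mL between those at 20 and 500 µg/mL, and in 873 it was nearer to 20 µg/mL. The median share of the log2 change that was present at 100 µg/mL was 30.6% (quartiles 17.5% and 43.8%), although 100 lies midway between 20 and 500 on a log scale of dose. The share was close in genes that rose (31.4%) and fell (29.6%). By gene group, its median was 43.7% over 3 CXC chemokines and 36.8% over 14 NF-kappa B genes, and 7.9% over 11 ID and BMP genes. CXCL8 was at 32.2 ± 3.39 CPM and IL6 at 9.01 ± 0.152 CPM at 100 µg/mL (SD, n = 3), between the other doses. ID2, at 22.3 ± 0.807 CPM, and ID3, at 157.3 ± 7.70 CPM, were at 100 µg/mL within the spread of 20 µg/mL. These shares have no test, and they use the same libraries at 20 and 500 µg/mL that chose the genes. Vehicle did not always resemble the low dose. Of 567 genes that rose, the vehicle mean was above that of 20 µg/mL in 378 and beyond that of 500 µg/mL in 109. Of 476 that fell, it was below that of 20 µg/mL in 283 and beyond that of 500 µg/mL in 57. The median log2 difference of vehicle from 20 µg/mL was small, 0.085 in genes that rose and -0.044 in those that fell. It was 0.003 over the 12745 tested genes of that level. Genes were called partly by their values at 20 µg/mL, which by itself can place vehicle on the side of 500 µg/mL. PLAU (130.7 CPM at 500 µg/mL, 133.5 in vehicle), PLAUR (87.5 and 90.0), HBEGF (38.2 and 44.8) and ANGPTL4 (14.6 and 21.3) were rises that stayed below vehicle.

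**Figure D4:**
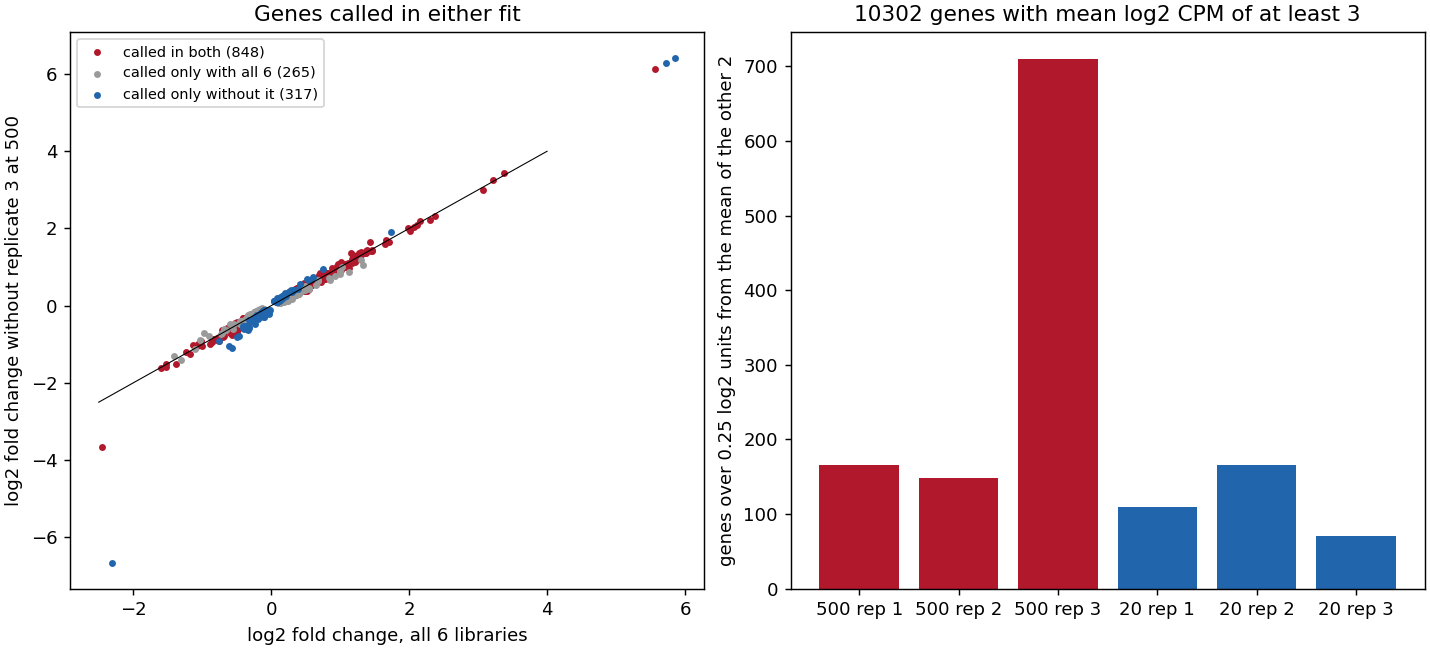
Left, log2 fold change with all 6 libraries (horizontal axis) against that without replicate 3 at 500 µg/mL (vertical axis), for genes called in both fits (848), only with all libraries (265) or only without replicate 3 (317), with the line of equal values. Right, number of 10302 genes in which each library was over 0.25 log2 units from the mean of the other 2 of its group, 710 in replicate 3 at 500 µg/mL and 70 to 166 in the others.

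All of the 15 largest rises and 15 largest falls were called without replicate 3 at 500 µg/mL, and all 1113 called genes kept their sign. Values of SAMD11 (-1.59 without against -1.52 with it), ICAM1 (1.36 against 1.37) and NFKBIA (0.74 against 0.76) moved little. CEBPD, an inflammatory transcription factor gene, was one of the 5 genes most raised in replicate 3 alone (16.6 CPM, against 11.1 and 12.5 CPM in the other 2 and 12.8 ± 0.636 CPM at 20 µg/mL). Of the 1113 calls, 559 held whichever of the 6 libraries was left out.

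The dose change was set beside that of Palmul-tang, which lacks the 2 added herbs and whose libraries are separate. In that extract 946 genes (5.3%) were called between 500 and 20 µg/mL, 505 higher (2.83%) and 441 lower (2.47%). Of the 30 genes named for the largest changes with Sibjeondaebo-tang, 29 were called in the same direction with Palmul-tang, and the exception was RASA4B (log2 fold change -0.49, adjusted p = 0.0849). CXCL8 had log2 fold changes of 3.38 ± 0.095 and 3.14 ± 0.096 (SE), ID2 of -1.11 ± 0.078 and -1.22 ± 0.081, SELENOW of -0.82 ± 0.046 and -0.89 ± 0.047, and IL6 of 1.98 ± 0.085 and 1.55 ± 0.085. The difference between the 2 dose changes was tested in edgeR and passed an adjusted p of 0.05 in 0 of 17839 genes, while 716 had an unadjusted p below 0.05. DESeq2 also called 0, with 347 below an unadjusted 0.05. The 3 smallest p-values belonged to TUBA1B-AS1, NPTX1 and BIRC5. NPTX1, a neuronal pentraxin, had log2 fold changes of 1.18 ± 0.092 and 0.56 ± 0.095 (difference 0.62 ± 0.133, adjusted p = 0.452). BIRC5, the mitosis gene survivin, had 0.05 ± 0.039 and -0.19 ± 0.039 (adjusted p of the difference 0.64, and 0.0468 with no filter on low counts), and TUBA1B-AS1 is a rare antisense RNA (adjusted p of the difference 0.405, and 0.0122 with no filter). A p above the threshold does not show that the formulas act alike: among genes whose mean log2 CPM reached 3 the median 95% interval of the difference was ± 0.141 log2 units wide on each side. Without replicate 3 at 500 µg/mL 1 gene passed, HNRNPA2B1, an RNA-binding protein gene (difference 0.25 ± 0.04, adjusted p = 0.00867).

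**Figure D5:**
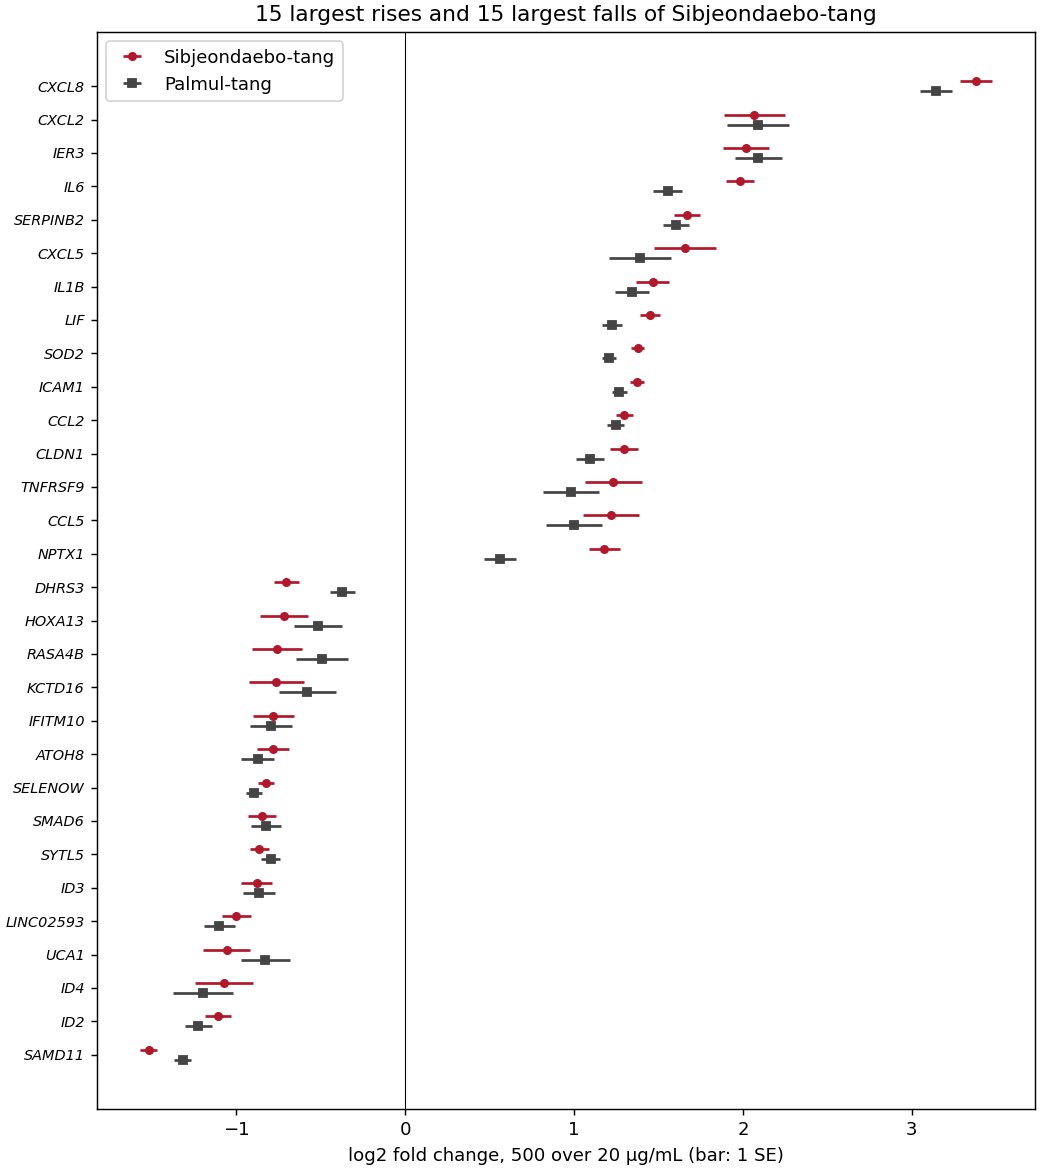
Log2 fold change of 500 over 20 µg/mL (horizontal axis, bars 1 SE) for the 15 largest rises and 15 largest falls of Sibjeondaebo-tang (red circles), with the same genes in Palmul-tang (grey squares). All 30 genes lie on the same side of zero in both, and NPTX1 and IL6 show the widest gaps relative to their bars.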

How the data were processed

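RNA from SW1783 cells was sequenced as paired-end reads from strand-marking libraries, per the labels' protocols. The submitters' processing notes name FastQC 0.11.9, Trim Galore 0.6.5, STAR 2.7.3a and RSEM 1.3.3 with hg38. The annotation release and the strand used for counting are not given in the sources used here. The authors deposited expected counts per gene, which were rounded to whole numbers here. For the analysis 30 columns were used, and 249 other per-sample columns of the deposited table were left out.

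Counts of all 30 libraries were fitted with edgeR 4.0.16 (TMM scaling, filterByExpr, robust quasi-likelihood test, 1 mean per group), and p-values were adjusted by Benjamini-Hochberg over 17839 genes. A gene was called at an adjusted p below 0.05. CPM are counts divided by the library total after TMM scaling. In the paragraph on cell type markers, and in sums of markers, the library total was not scaled. The SE is the absolute log2 fold change over the square root of F. The test was checked on simulated data. Gene names and positions are from GENCODE release 29 and promoters from RefSeq.

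Genes named are the 15 largest rises and falls among calls with no overlap between doses whose mean log2 CPM reached 1, up to 4 called genes per list by p (the smallest p where none was called), 12 fixed genes, the 3 smallest p of the difference between formulas and the 5 genes farthest from replicates 1 and 2 in replicate 3, each way. Further list members are named as examples after their values were seen. The comparison and the gene lists were chosen with earlier results of these data known. DESeq2 1.42.0, other scaling, other filters, fewer groups, a replicate block and leaving out each library were the alternatives.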

Additional observations from a re-analysis of the deposited data

How the results depend on the processing

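Called genes numbered 1128 with DESeq2's size factors in edgeR, 952 with DESeq2 and 1147 with no filter, against 1113. On only the compared groups 636 were called, 373 higher and 263 lower. On the 9 Sibjeondaebo-tang libraries 733 were called, 319 of them lower. DESeq2 called 40 genes past 2-fold, against 66. Leaving out 1 library gave 756 to 1165 calls, 438 to 611 higher, 318 to 554 lower, and 61 to 69 past 2-fold, and the lowest count of falls, 318, came without replicate 3 at 20 µg/mL. The difference between formulas had 0 to 1 calls with 1 library left out (1 without replicate 3 at 500 µg/mL), 12 with no filter, and 2 with a replicate block by formula. Of the 12, the 5 rarest had 38 to 126 counts in the 12 libraries, and the other 7 had 311 to 43251, among them BIRC5 (adjusted p = 0.0468 in edgeR) and MT1E (0.0122). The log2 fold change of MKI67, not called, ran from -0.0173 to 0.0545 with 1 library left out, and was below 0 without replicate 2 at 500 µg/mL and, at -0.01, without replicate 2 at 20 µg/mL. The cause of these shifts was not tested, beyond that fewer libraries entered the smaller fits.

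With the replicate number as a block in the 9 Sibjeondaebo-tang libraries 1019 genes were called, 548 higher and 471 lower, 67 past 2-fold, against 733 in the same libraries with no block. Same-numbered libraries at 500 and 20 µg/mL deviated from their group means with correlations of -0.08, 0.015 and 0.092. At 500 and 100 µg/mL they were 0.195, -0.055 and 0.312, and at 100 and 20 µg/mL 0.063, 0.101 and 0.116. Not every pair was over 0.1, so the numbers were not taken as pairs, and not every library correlated best with its own number. Across named genes and their alternatives 1902 values kept direction and side of the threshold, 148 lost the call, 6 gained it and 2 changed sign. Counts in gene lists stayed within 1.5 times in 1697 cases and moved further in 247. Depth limits genes of low level: CXCL1 had 14, 14 and 24 counts in the libraries at 20 µg/mL, and DLX3 28, 35 and 30 counts at 500 µg/mL.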

Other observations

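Further groups of genes were chosen after their values were seen, and their counts are descriptions. Among all tested genes 3.45% were called higher and 2.79% lower. Hyaluronan genes rose in 3 of 10 tested: HAS3, a synthase of this matrix sugar, rose by 0.65 on the log2 scale (adjusted p = 1.23e-11 in edgeR), HAS2 by 0.73 and CEMIP, which takes part in its breakdown, by 0.55. Genes of immune checkpoints and antigen presentation rose in 10 of 15 and fell in 1, and in 8 and 0 without replicate 3 at 500 µg/mL. CD274, the gene of an immune checkpoint ligand, rose by 0.55 on the log2 scale (adjusted p = 5.98e-05), PDCD1LG2 by 0.40, and the peptide transporter subunits TAP1 and TAP2 by 0.29 and 0.23.

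Selenoprotein genes went both ways, with 4 rises and 3 falls among 21 tested, and 2 rises and 4 falls without replicate 3. SELENOW, GPX1 and SELENOH had log2 fold changes of -0.82, -0.45 and -0.39, while TXNRD1 and the deiodinase DIO2 had 0.21 and 0.45. Retinoid genes had 2 rises and 5 falls among 17 (1 and 6 without replicate 3): DHRS3 had -0.70, the receptor RARA -0.38 and STRA6 -0.24, and ALDH1A3, which makes retinoic acid, had 0.48. Of 15 tested genes of the protocadherin beta cluster 5 fell and 0 rose, with PCDHB15 at -0.40 and PCDHB14 at -0.30 (4 falls without replicate 3). Of 13 genes of tryptophan and NAD 2 rose and 1 fell (2 and 0 without replicate 3): KYNU, of tryptophan breakdown, had 0.67, NAMPT 0.33 and QPRT, both of NAD synthesis, -0.54 (adjusted p = 0.035 in edgeR, and 0.124 without replicate 3).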
